A study of Mus musculus with 8 samples.

Results

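The genes described here build the sheaths and dense fibres of the sperm tail: Odf1, Odf2 and Odf3 of the outer dense fibres, Akap3, Akap4, Ropn1, Ropn1l and Fscb of the fibrous sheath, and Smcp and Gpx4 of the mitochondrial sheath. They were taken by name: every non-control probe of the array that carries 1 of these 10 gene names was used. The rule gave 14 of the array's 55681 probes, with 2 probes each for Odf2, Odf3, Akap4 and Ropn1l and 1 probe for each other gene. All 14 were tested. In the testis the dense fibres and the fibrous sheath are laid down around the axoneme while round spermatids elongate, and the mitochondrial sheath wraps the midpiece later. The RNA of several of these genes is made in round spermatids and stored before it is translated. Some members are not limited to the tail: Odf2 also encodes a protein of centriole appendages, and Gpx4 is a lipid peroxidase that most cells make.

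Polyadenylated RNA of whole testes was read on 8 single-colour Agilent arrays, 2 for each of 4 groups. The groups were Ip6k1-/- (knockout, KO) and Ip6k1+/+ (wild type, WT) mice killed at 26 dpp (days postpartum), after weaning, and KO and WT mice killed at 17 dpp, before weaning. All were C57BL/6 littermates from crosses between Ip6k1+/- parents, and each group has 2 arrays, labelled as biological replicates (n = 2). Ip6k1 encodes an inositol hexakisphosphate kinase, and the part of the gene that is missing is not given in the sources used here. In a whole testis, fewer cells of a type and less RNA per cell cannot be told apart.

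Levels are given as log2 of the background-corrected signal relative to the array's own 75th percentile, so 0 is the brightness below which 75% of that array's spots lie. Differences were tested with limma in 1 fit over all 8 arrays and 37810 probes, and a probe passed at a Benjamini-Hochberg adjusted p under 0.05. Between 59.8% and 65.6% of the spots of an array were well above background. The Ip6k1 probe read 1.41 and 1.30 in KO and 2.79 and 2.77 in WT at 26 dpp, and 1.36 and 1.49 in KO and 2.19 and 2.30 in WT at 17 dpp. It was lower on all 4 KO arrays, which checks the labels only if the probe lies in the missing part. Yet the Ip6k1 probe passed at neither age: KO minus WT was −1.43 at 26 dpp (limma adjusted p = 0.504) and −0.82 at 17 dpp. The library labelled KO 26 dpp replicate 2 stood apart: across probes it correlated at 0.867 with its replicate and at 0.918 to 0.946 with the arrays of 17 dpp. KO 26 dpp replicate 1 correlated at 0.991 and 0.988 with the WT arrays of 26 dpp. On KO 26 dpp replicate 2 the Ip6k1 level lay with those of the other KO arrays. No value here checks the age label of that library, and whether that label is right was not settled. KO at 26 dpp means the arrays so labelled throughout, and every comparison of this group is given with and without replicate 2.

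**Figure D1:**
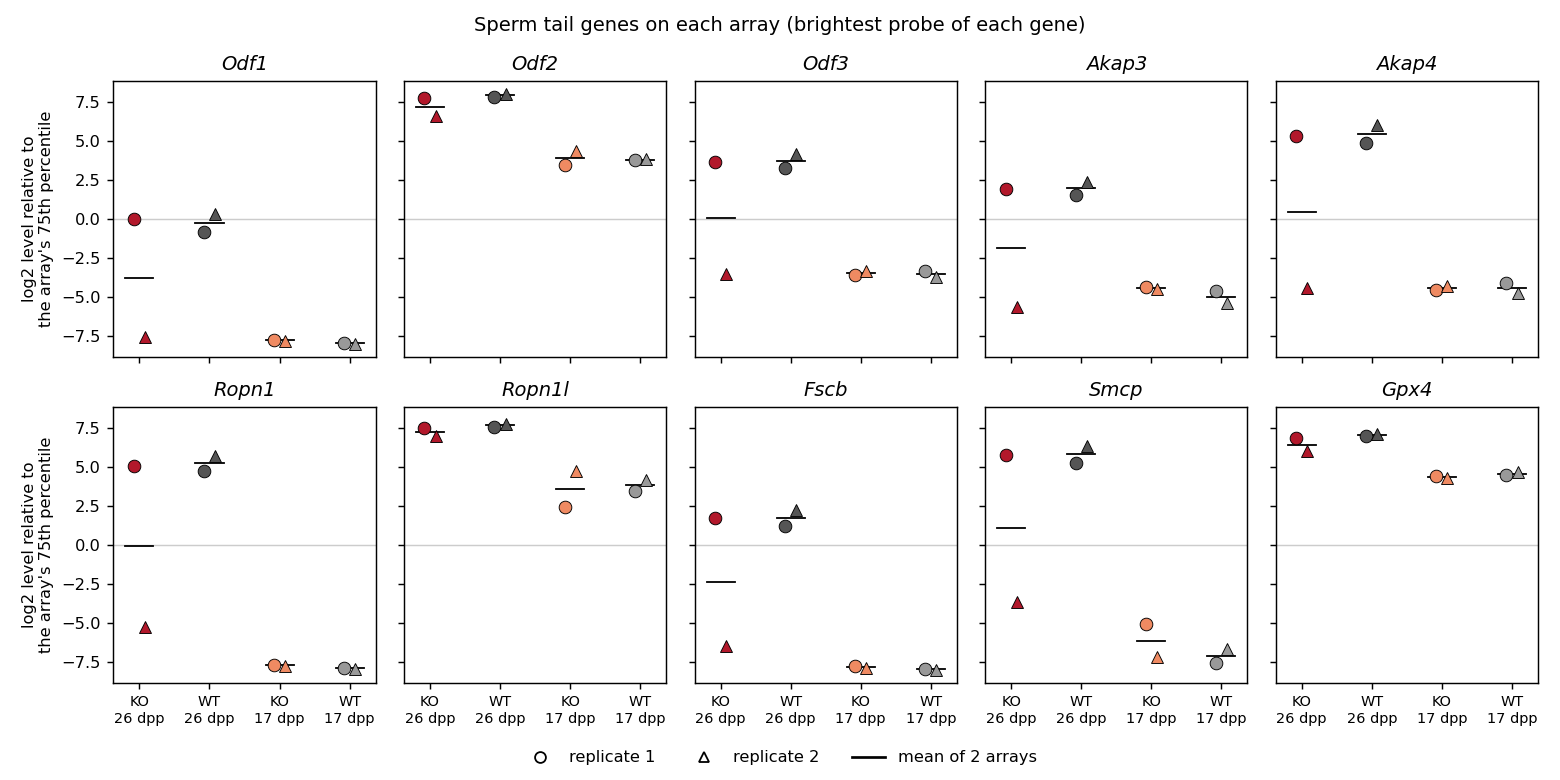
Log2 level relative to the array's 75th percentile for the leading (on average brightest) probe of each of the 10 genes, 1 panel a gene. Points are single arrays (circle for replicate 1, triangle for replicate 2) and lines are means of 2 arrays. KO 26 dpp replicate 2 lies with the arrays of 17 dpp for Odf3 and Akap4, and below them for Akap3. For Odf1 it is near them, all not well above background. For Ropn1l it lies near the other arrays of 26 dpp.

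In wild type testes the sperm tail genes rose between 17 and 26 dpp. All 10 genes had a probe that passed upward, 13 of 14 probes in all, where 17.9% of the 37810 probes tested passed upward and 25.5% passed downward. The median difference of the 14 probes was 7.50 on the log2 scale, or 7.12 with the 5 probes that were not well above background in WT at 17 dpp set to their lower bounds. It was 4.132 over the 7 probes well above background on all 8 arrays. The median of all probes was −0.47. In 13 of 14 probes both WT arrays of 26 dpp lay above both of 17 dpp, as in 31.3% of all probes. A brightness filter kept 6 of the 14 probes through groups of 26 dpp only, and such probes had to differ between the ages. The other 8 met the filter at 17 dpp too, and 7 of them passed upward. The members no longer passed when any 1 of the 4 WT arrays was left out, and almost none of all probes passed in those fits. With either KO array of 17 dpp left out, fewer of the 14 probes passed, and fewer of all probes too. Without a filter on dim probes 11 of 14 passed and with a replicate block 12, and Akap3 was not among them in either fit. The median difference stayed between 7.008 and 7.996 when any 1 array was left out. The SE and p-value of a WT difference pool the spread of all 4 groups. They thus also take in the gap between the 2 KO arrays of 26 dpp. For Odf1, for example, the SD was 5.37 in KO and 0.80 in WT at 26 dpp, and 0.03 in KO and 0.04 in WT at 17 dpp.

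Among the outer dense fibre genes, Odf1 encodes a major cysteine-rich fibre protein (probe at chr15:38149190-38149249 on mm9). Odf1 read 0.0011 and −7.60 in KO and −0.82 and 0.32 in WT at 26 dpp, against −7.77 and −7.81 in KO and −7.96 and −8.03 in WT at 17 dpp. It was well above background on 3 arrays only, those of 26 dpp other than KO replicate 2. In WT it was at least 43.9-fold higher at 26 than at 17 dpp (log2 difference 7.74, SE 2.20, limma adjusted p = 0.0352). Odf3 encodes a further dense fibre protein and has 2 probes on chromosome 7 (148036714 to 148036773 and 148036848 to 148036907). Its first probe read 3.63 and −3.50 in KO and 3.31 and 4.15 in WT at 26 dpp, against −3.60 and −3.35 in KO and −3.32 and −3.74 in WT at 17 dpp. KO replicate 2 of 26 dpp lay inside the range of the 17 dpp arrays, and the other 3 arrays of 26 dpp lay far above it. The WT age difference of this probe was 7.26 (153-fold, SE 2.06, limma adjusted p = 0.0353). The second Odf3 probe was not well above background at 17 dpp and was at least 743-fold higher in WT at 26 dpp (limma adjusted p = 0.0304).

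Odf2, a scaffold protein of the fibres, was the gene of which 1 probe passed and the other did not. Its 2 probes lie 8439 bases apart on chromosome 2 (29778000 to 29778059, probe 1, and 29786439 to 29786498, probe 2), and the files assign them to transcript variants with no shared accession. The last 30 bases of each probe are shown, and which transcript ends the probes read was not determined. Capitals mark AATAAA, the usual signal for cleavage and polyadenylation, which only the printed stretch of probe 1 holds:
Odf2 probe 1: tgctgtgaAATAAAagtctggtgtgccaaa
Odf2 probe 2: tcagggaatgtttggacggactgttccatg
Probe 1 read 7.77 and 6.63 in KO and 7.84 and 8.06 in WT at 26 dpp, against 3.44 and 4.37 in KO and 3.76 and 3.87 in WT at 17 dpp. Both arrays of 26 dpp lay above both of 17 dpp in each genotype, and the WT difference was 4.13 (17.5-fold, SE 0.475, limma adjusted p = 0.00651). Probe 2 read −0.23 and −1.57 in KO and −1.20 and −1.96 in WT at 26 dpp, against −0.59 and −1.24 in KO and −1.51 and −1.68 in WT at 17 dpp. It was well above background on all 8 arrays, its ages overlapped in both genotypes, and its WT difference of 0.01 had a 95% interval of −1.27 to 1.29 (limma adjusted p = 0.985). Whether the age differences of the 2 probes differ was not tested.

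The anchoring proteins of the fibrous sheath, which bind the regulatory subunit of protein kinase A, are encoded by Akap3 (chr6:126816717-126816776 on mm9) and Akap4 (2 overlapping probes, 6655667 to 6655726 and 6655646 to 6655705 on chromosome X). Akap3 read 1.91 and −5.67 in KO and 1.57 and 2.39 in WT at 26 dpp, against −4.39 and −4.51 in KO and −4.62 and −5.40 in WT at 17 dpp. KO replicate 2 of 26 dpp was the lowest of the 8 arrays and not well above background, and the other 3 arrays of 26 dpp were the highest. In WT the difference between the ages was 6.99 (127-fold, SE 2.20, limma adjusted p = 0.0448), with a limma adjusted p of 0.063 without the filter on dim probes and 0.054 with a replicate block. Akap4, the most abundant protein of the sheath, read 5.34 and −4.45 in KO and 4.88 and 6.01 in WT at 26 dpp on its first probe. At 17 dpp that probe read −4.55 and −4.30 in KO and −4.12 and −4.72 in WT, so KO replicate 2 of 26 dpp lay inside the range of the younger testes. The WT difference was 9.87 (934-fold, SE 2.82, limma adjusted p = 0.0358, or 0.0507 without the filter on dim probes). The second Akap4 probe gave 11.02 (limma adjusted p = 0.0331), with 1 of the 2 WT arrays of 17 dpp well above background.

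Ropn1 and Ropn1l encode paralogous proteins that dock on these anchoring proteins through a domain like that of protein kinase A's regulatory subunit. Ropn1 (chr16:34677306-34677365 on mm9) read 5.08 and −5.25 in KO and 4.77 and 5.73 in WT at 26 dpp, against −7.68 and −7.75 in KO and −7.88 and −7.95 in WT at 17 dpp. It was not well above background at 17 dpp or on KO replicate 2 of 26 dpp, and in WT it was at least 1980-fold higher at 26 than at 17 dpp (log2 difference 13.16, SE 2.96, limma adjusted p = 0.0212). Ropn1l differed from its paralogue in that it was well above background on all 8 arrays, with probes on chromosome 15 at 31370980 to 31371039 and 31373048 to 31373107. Its first probe read 7.52 and 7.04 in KO and 7.61 and 7.76 in WT at 26 dpp, against 2.43 and 4.75 in KO and 3.49 and 4.19 in WT at 17 dpp. All 4 arrays of 26 dpp lay above all 4 of 17 dpp. In WT the 2 probes differed between the ages by 3.85 (14.4-fold, SE 0.739, limma adjusted p = 0.015) and 4.47 (22.2-fold, SE 0.81, limma adjusted p = 0.0132). At 17 dpp the KO arrays were the lowest and the highest of the 4 on both Ropn1l probes, with both WT arrays between them. Fscb, a protein that binds the sheath protein CABYR (chr12:65572567-65572626 on mm9), read 1.75 and −6.47 in KO and 1.20 and 2.24 in WT at 26 dpp. At 17 dpp Fscb read −7.79 and −7.88 in KO and −7.94 and −8.04 in WT, none of them well above background, and in WT it was at least 172-fold higher at 26 dpp (limma adjusted p = 0.0254).

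Of the mitochondrial sheath genes, Smcp encodes a cysteine-rich protein of the sperm mitochondrial capsule (chr3:92387882-92387941 on mm9). Smcp read 5.81 and −3.66 in KO and 5.27 and 6.39 in WT at 26 dpp, against −5.10 and −7.22 in KO and −7.57 and −6.66 in WT at 17 dpp. KO replicate 2 of 26 dpp lay above all 4 arrays of 17 dpp and 8.93 below the lowest other array of 26 dpp. In WT Smcp was at least 2970-fold higher at 26 than at 17 dpp (log2 difference 12.95, SE 2.80, limma adjusted p = 0.0194). Gpx4 is the selenoprotein that, cross-linked and inactive, hardens the capsule of mature sperm. Its 60-base probe spans 152 bases of chr10:79518691-79518842 on mm9, and the files list 2 RefSeq transcripts under it. The probe is shown because its sequence, and not a splice form, is what the Gpx4 level stands for:
Gpx4 probe: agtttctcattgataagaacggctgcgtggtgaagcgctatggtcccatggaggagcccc
Gpx4 read 6.85 and 6.03 in KO and 6.996 and 7.16 in WT at 26 dpp, against 4.43 and 4.30 in KO and 4.48 and 4.66 in WT at 17 dpp. The ages did not overlap, and the WT difference of 2.51 was the smallest among the 13 probes that passed (5.70-fold, SE 0.329, limma adjusted p = 0.00779).

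The promoters of these genes, windows of 300 bases around each RefSeq transcript start on GRCm38.p6, were read because the genes changed with age together. Windows were given for 9 of the 10 genes, 16 windows in all, and none was used for Odf1. The letters TGATGTCA, searched on both strands, stood in the windows of Akap3, Akap4, Fscb and Smcp, 4 of 9 genes, against 4.18% of all 27025 genes with a window (3.62% of 32851 windows). This word is a variant of TGACGTCA, the cyclic AMP response element, and it was chosen after the sequences were seen. The palindrome TGACGTCA itself stood in 0 of 9 genes and in 2.03% of all genes. The letters GTTGCC, part of the X-box that RFX factors of ciliated cells bind, stood in the windows of Odf3, Ropn1l and Gpx4, 3 of 9 genes, against 14.14% of all genes. Stretches of 100 bases are printed for the genes whose match lies nearest to the start, 5′ to 3′ in the direction of the gene, with the matched letters in capitals; a match is a description and not a site:
Akap3, chr6:126853018-126853117, plus strand: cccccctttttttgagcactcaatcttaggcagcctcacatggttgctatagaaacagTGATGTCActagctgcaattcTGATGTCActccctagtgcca
Akap4, chrX:7067415-7067514, plus strand: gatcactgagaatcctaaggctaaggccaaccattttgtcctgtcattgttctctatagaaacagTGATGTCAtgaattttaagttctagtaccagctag
Fscb, chr12:64474899-64474998, minus strand: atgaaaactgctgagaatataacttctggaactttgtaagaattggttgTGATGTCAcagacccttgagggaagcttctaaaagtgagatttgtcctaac
Smcp, chr3:92589034-92589133, minus strand: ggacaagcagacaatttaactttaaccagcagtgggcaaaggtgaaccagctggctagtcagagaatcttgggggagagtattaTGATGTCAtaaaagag
Odf3, chr7:140847816-140847915, plus strand: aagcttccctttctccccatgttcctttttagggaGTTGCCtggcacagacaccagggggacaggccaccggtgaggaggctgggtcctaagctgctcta
Ropn1l, chr15:31453690-31453789, minus strand: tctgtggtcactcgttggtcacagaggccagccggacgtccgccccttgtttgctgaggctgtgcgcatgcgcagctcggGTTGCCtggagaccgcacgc

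Counted from the transcript start as 0, TGATGTCA began at −22 and −1 in Akap3, at −35 in Akap4, at −51 in Fscb and at 24 in Smcp. The match in Akap4 and the upstream match in Akap3 end a stretch of 20 bases, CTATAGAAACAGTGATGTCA, that both promoters share letter for letter and that was found in 2 of all 32851 windows, these 2. GTTGCC began at −65 in Odf3 and at −20 in Ropn1l, and in Gpx4 its reverse complement began at −246. The windows also differed in CG dinucleotides, which number 7 in the median window (quartiles 3 and 20). The windows of Smcp, Akap3 and Fscb held 0, those of Akap4 0 and 1, and those of Odf3 and Ropn1 2 each. The Ropn1l window held 22, the Odf2 windows 26 to 43, and the Gpx4 windows 3 for the most upstream start and 26 to 31 for the others. Ropn1l, Odf2 and Gpx4 were also the 3 genes with a probe that passed in KO with age when all arrays were used, as given next. That split did not hold when either KO array of 26 dpp was left out. It is a description of 9 genes, with no test.

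In knockout testes 4 of 14 probes rose between 17 and 26 dpp with all arrays used, where 6.81% of all probes passed upward and 7.84% downward. Of all probes that passed, 46.5% were upward, or 58.7% with the arrays scaled to their medians, where again 4 of 14 members passed. They were probe 1 of Odf2 (3.30, SE 0.475, limma adjusted p = 0.0193), both probes of Ropn1l (3.69 and 4.14, limma adjusted p = 0.0301 and 0.029) and Gpx4 (2.07, SE 0.329, limma adjusted p = 0.0212). The median difference was 4.06, against −0.33 over all probes. Without KO replicate 2 of 26 dpp, 13 of 14 probes passed upward, in all 10 genes, where 20.4% of all probes did, and the median was 7.45. In contrast, the members no longer passed when KO replicate 1 of 17 dpp or any 1 of the 4 WT arrays was left out. Almost none of all probes passed in those fits either. The median difference was 3.71 without KO replicate 1 of 17 dpp and stayed at 4.06 without any 1 WT array. Array weights or a fit of the 4 KO arrays alone left 0 of 14 past the threshold, again with almost none of all probes passing. A replicate block left 2, and fewer of all probes passed with it too. Without KO replicate 2 of 26 dpp Akap4, for example, differed by 9.77 (SE 0.523, limma adjusted p = 0.000332) and Smcp by 11.97 (SE 0.986, limma adjusted p = 0.00117), with the lone KO array of 26 dpp assumed to vary like the other groups. Without KO replicate 1 in its place, 3 of 14 passed, namely probe 1 of Odf2, Ropn1 and Gpx4, where 8.03% of all probes did, and the median was 0.87. Ropn1 was not well above background on any of the 3 KO arrays left in that fit, so its difference there is not resolved. The KO and WT age comparisons have no sample in common.

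**Figure D2:**
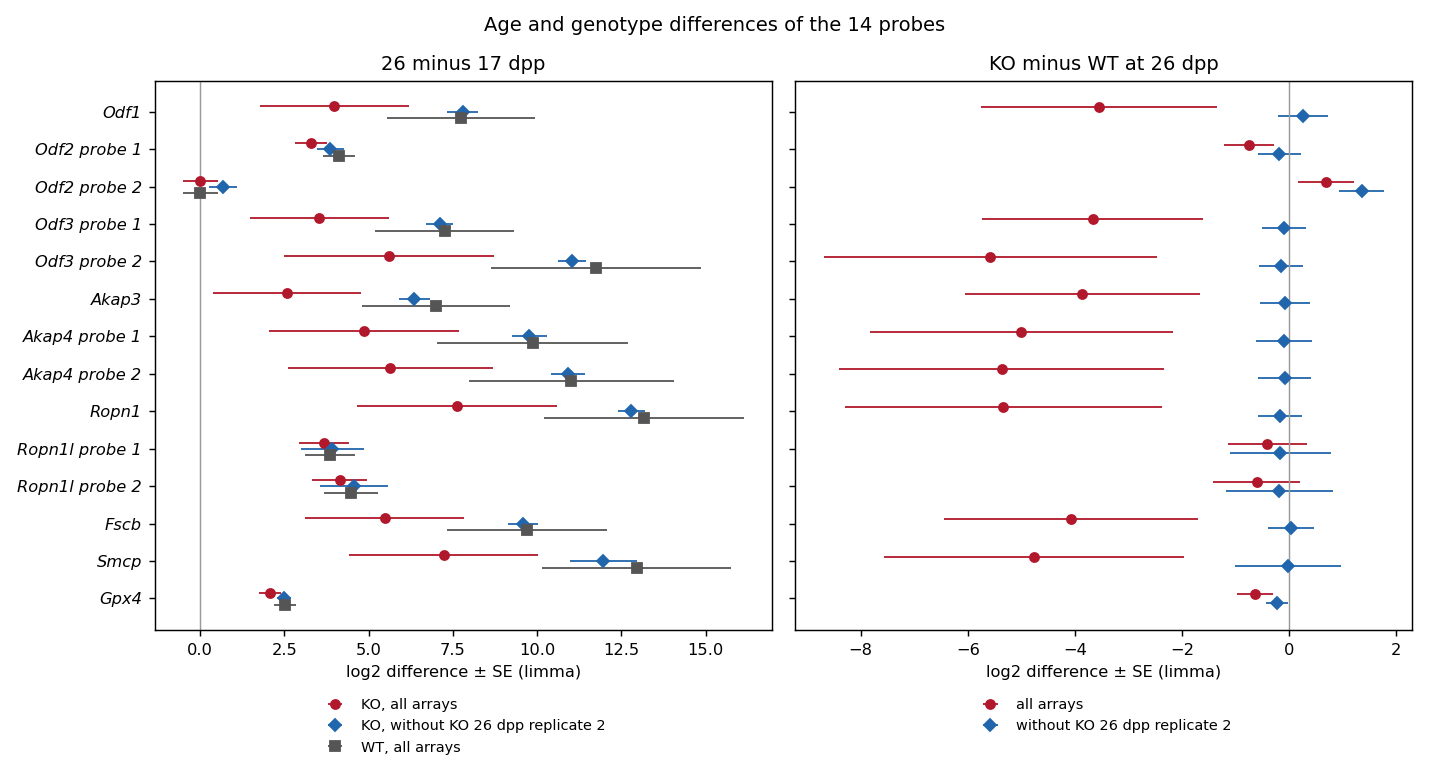
Log2 differences with standard errors from limma for the 14 probes (where a gene has 2 probes, probe 1 is the one brighter on average): left, 26 minus 17 dpp in KO with all arrays, in KO without KO 26 dpp replicate 2, and in WT; right, KO minus WT at 26 dpp with all arrays and without that replicate. Without it the KO age differences lie next to those of WT, and 13 of the 14 differences between KO and WT lie between −0.23 and 0.25.

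At 17 dpp no sperm tail gene passed between knockout and wild type: 0 of 14 probes by limma, and 0 at an unadjusted p under 0.05, where 0.00529% of all probes passed upward and 0.0688% downward (564 had an unadjusted p under 0.05). The median difference was 0.12, against 0.02 over all probes, and the range was −0.27 for the second Ropn1l probe to 0.96 for Smcp (limma adjusted p = 1 for each of the 14). Gpx4 was lower on both KO arrays, by −0.20 with a 95% interval of −1.003 to 0.60. It was the only 1 of 14 probes whose KO arrays both lay below both WT arrays, as in 12.5% of all probes. On 6 of 14 probes both KO arrays lay above both WT arrays, as in 16.3% of all probes. Of these, Odf1, Fscb, Ropn1 and the second Odf3 probe were not well above background on any of the 4 arrays, which leaves Akap3 and probe 2 of Odf2. Markers of epididymis moved in this comparison: all 5 were well above background on both WT arrays of 17 dpp and 0 on the KO arrays of 17 dpp, with summed levels of 0.0268 and 0.0272 in KO and 3.55 and 14.5 in WT. Those 2 WT arrays are also the baseline of the WT age differences, in which all 5 markers passed downward. They enter the age by genotype difference as well. The part of the epididymal markers in any of these differences of the sperm tail genes was not tested. For Akap4, where the spread of the 26 dpp arrays widens the interval (−6.87 to 6.86), the fit without KO replicate 2 of 26 dpp gave −0.0057 with an interval of −1.09 to 1.08.

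At 26 dpp the comparison of knockout with wild type turned on which KO array was used. With both, 0 of 14 probes passed by limma and 0 had an unadjusted p under 0.05, where 0% of all probes passed upward and 0.00793% downward (3 probes, with 1080 at an unadjusted p under 0.05). The median difference was −3.76, against 0.07 over all probes, and 13 of 14 probes had a negative value. Over the 7 probes that each of the 8 arrays measured well above background it was −0.639, whereas over all 14 it was −2.442 and −2.474 with normexp background correction (75th percentile and quantile scaling). The KO replicates lay far apart: Akap4, with 0.45 ± 6.93 in KO and 5.45 ± 0.80 in WT (SD, n = 2 each), differed by −5.00 with an interval of −11.87 to 1.87 (limma adjusted p = 0.546). On 4 of 14 probes both KO arrays lay below both WT arrays, as in 16.4% of all probes: probe 1 of Odf2, both Ropn1l probes and Gpx4. Gpx4 averaged 6.44 ± 0.59 in KO and 7.08 ± 0.12 in WT (difference −0.64, interval −1.44 to 0.16, limma adjusted p = 0.546). On the other probes KO replicate 1 lay within or above the range of the WT arrays.

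Without KO replicate 2, again 0 of 14 probes passed at 26 dpp (0.00793% of all probes upward, 0.0212% downward), and the median difference was −0.10. Akap4 then differed by −0.10 (interval −1.43 to 1.22), Gpx4 by −0.23 (−0.75 to 0.30) and probe 1 of Odf2 by −0.18 (−1.21 to 0.84). Probe 2 of Odf2 had the widest difference, 1.36 (interval 0.29 to 2.43), and was the only 1 of 14 with an unadjusted p under 0.05 (limma adjusted p = 1). Without KO replicate 1, 11 of 14 probes passed downward, in 9 genes, where 17.9% of all probes passed downward, and the median was −7.50. Of these 11, 6 were not well above background on KO replicate 2, and their differences are then against background. In that fit Akap4 differed by −9.90 (limma adjusted p = 0.000541) and Gpx4 by −1.05 (limma adjusted p = 0.0141), while Ropn1l differed by −0.65 and −1.03 (limma adjusted p = 0.606 and 0.443). The knockout difference at 26 dpp minus that at 17 dpp passed for 0 of 14 probes with all arrays (0% of all probes in either direction, 790 of them and 0 of the 14 at an unadjusted p under 0.05), with a median of −3.996 (−2.603 and −2.593 with the 2 normexp settings, −0.436 over those 7 probes). That median was −0.11 without KO replicate 2, with 0 of 14 past the threshold, and −7.88 without KO replicate 1, with 9 of 14 passing downward, where 13.4% of all probes did.

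**Figure D3:**
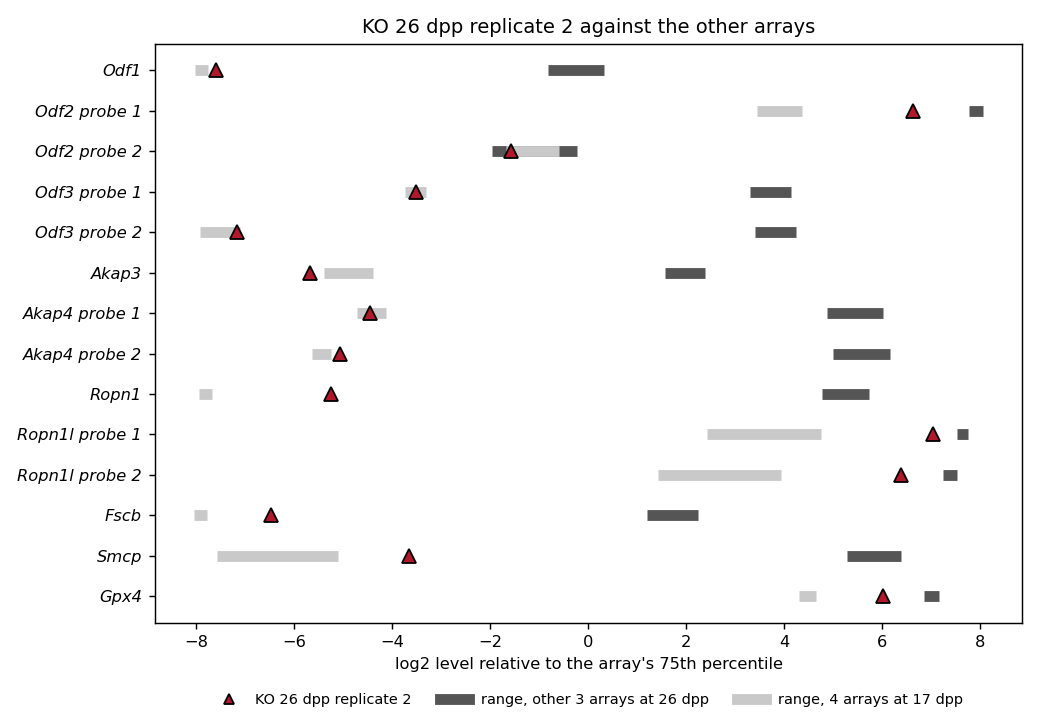
Level of each of the 14 probes on KO 26 dpp replicate 2 (triangle) beside the range of the other 3 arrays of 26 dpp (dark bar) and of the 4 arrays of 17 dpp (light bar), on the log2 scale relative to the array's 75th percentile. The triangle lies between the bars for probe 1 of Odf2, Ropn1l, Smcp and Gpx4, and at or near the light bar for the first probes of Odf3 and Akap4; on the other probes but probe 2 of Odf2 it is not well above background.

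The sperm tail genes did not move as a block on KO replicate 2 of 26 dpp. The probes of Ropn1l lay 0.49 and 0.85 below the lowest other array of 26 dpp and 2.28 and 2.46 above the highest of 17 dpp. Gpx4 lay 0.83 below the lowest other array of 26 dpp and 1.37 above the highest array of 17 dpp, and probe 1 of Odf2 lay 1.14 below and 2.26 above. Smcp lay 1.44 above the highest array of 17 dpp and 8.93 below the lowest other array of 26 dpp. The first probes of Akap4 and Odf3 lay 9.33 and 6.81 below that array. The 6 probes that were not well above background on KO replicate 2 have only a lower bound. It is set against the floor of that array, or against the probe's own signal where that is higher, as for Ropn1 and the second Akap4 probe. Odf1 lay at least 4.61, Fscb at least 6.62 and Akap3 at least 6.99 below the lowest other array of 26 dpp. Ropn1 lay at least 10.02 below it, as did the second probes of Akap4 and Odf3 by at least 10.06 and 8.84. Other than for Akap3, the order of these 6 against the arrays of 17 dpp is not resolved. These are values of 1 array, with no error of their own.

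Markers of elongating and round spermatids moved with the median of the sperm tail genes, and those of other cell types did not all do so. The 5 elongating spermatid markers (transition proteins and protamines) had a median level of 6.78 and −3.86 in KO and 6.05 and 8.12 in WT at 26 dpp, against −3.90 and −3.40 in KO and −4.72 and −4.09 in WT at 17 dpp. Their summed linear level was 574 and 0.406 in KO and 379 and 1154 in WT at 26 dpp, and 0.371 to 0.588 on the arrays of 17 dpp. The 5 round spermatid markers summed to 46.1 and 0.767 in KO and 35.7 and 61.1 in WT at 26 dpp, and to 0.697 to 0.840 at 17 dpp. Acrv1 and Catsper3 were not well above background on KO replicate 2 of 26 dpp, nor on the arrays of 17 dpp. Pachytene spermatocyte markers (5 measured of 6 listed) summed to 152 and 167 in KO and 167 and 175 in WT at 26 dpp, and to 55.8 to 84.3 at 17 dpp. Their median level was 4.34 and 3.40 in KO and 4.53 and 4.64 in WT at 26 dpp, and 0.66 to 1.37 at 17 dpp. On KO replicate 2, Ccna1, Piwil1, Pou5f2 and Hspa2 lay between the other arrays of 26 dpp and those of 17 dpp (Ccna1 at 1.07, against 3.48 in KO and 3.68 and 3.69 in WT). Sycp3 read 6.34 there, above all 7 other arrays. The 6 spermatogonial markers summed to 17.0 and 66.5 in KO and 15.6 and 14.9 in WT at 26 dpp, and to 58.0 to 85.1 at 17 dpp. The 6 Sertoli cell markers, of which 5 fell with age in WT by limma, summed to 45.5 and 92.9 in KO and 45.1 and 39.3 in WT at 26 dpp, and to 94.5 to 123.5 at 17 dpp. The 3 peritubular myoid markers all fell with age in WT by limma, and summed to 20.3 and 36.7 in KO and 22.1 and 18.4 in WT at 26 dpp, and to 42.7 to 60.5 at 17 dpp. The medians of the Sertoli and myoid lists on KO replicate 2 were 1.74 and 0.39, against 1.62 to 1.81 and 1.36 to 1.52 on the other arrays of 26 dpp. The 4 Leydig cell markers, of which 0 passed with age in WT, summed to 14.8 and 0.841 in KO and 21.2 and 10.3 in WT at 26 dpp, and to 17.4 to 23.8 at 17 dpp, so that KO replicate 2 lay below the arrays of both ages. The part of these cell types in the values of the sperm tail genes was not tested.

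**Figure D4:**
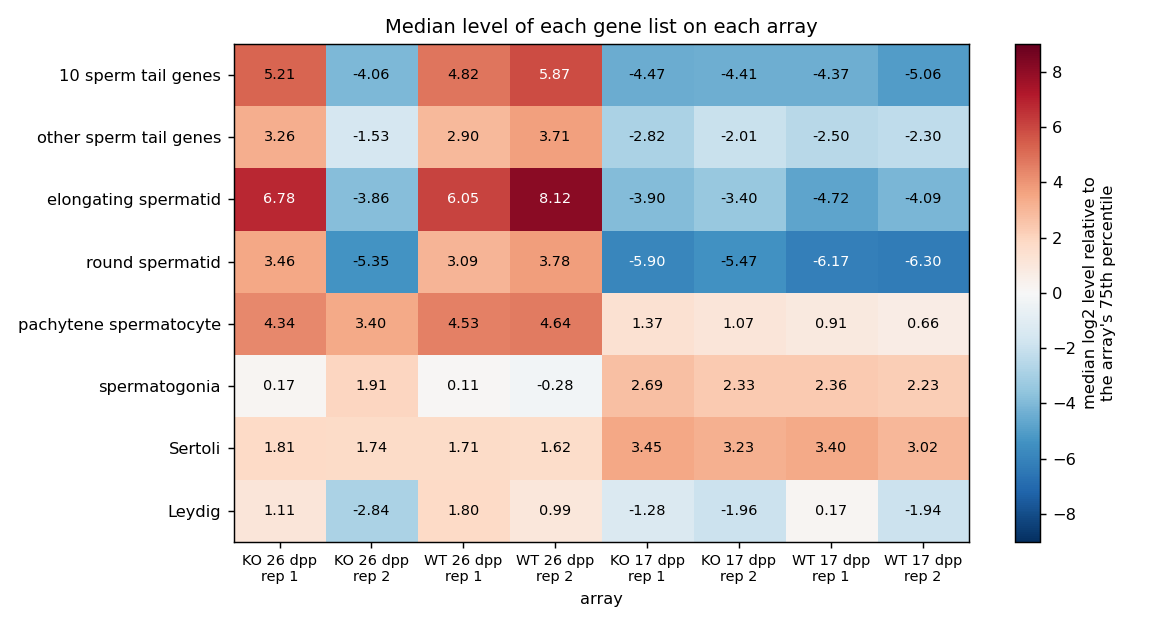
Median log2 level of each gene list on each of the 8 arrays, with the value printed in its cell and the colour centred on 0, the array's 75th percentile. The leading probes of the 10 sperm tail genes had medians of 5.21 and −4.06 in KO and 4.82 and 5.87 in WT at 26 dpp, and −5.06 to −4.37 at 17 dpp, and the spermatid lists have the same high and low arrays.

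A list of 29 other genes of the sperm tail and of nearby sperm structures, all measured, was read beside the members. In WT 23 of 29 rose between 17 and 26 dpp and 0 fell by limma, with a median difference of 5.80. The 2 largest fitted differences, whose order is not resolved, were those of Cylc2 and Gapdhs. Cylc2 is a cylicin of the sperm head skeleton that was not well above background in WT at 17 dpp and was at least 392-fold higher at 26 dpp (limma adjusted p = 0.025). Gapdhs, the glycolytic enzyme bound to the fibrous sheath, differed by 10.37 (SE 2.49, limma adjusted p = 0.0246). The smallest belonged to Vdac3, a mitochondrial outer membrane channel, with 0.20 (limma adjusted p = 0.469), and Slc25a31, the germ cell carrier of adenine nucleotides, with −0.27 (limma adjusted p = 0.491). In KO 7 of 29 rose with all arrays, and 25 rose and 1 fell without KO replicate 2 of 26 dpp. Between KO and WT 0 of 29 passed at either age, with a median difference of −1.24 at 26 dpp (−0.13 without KO replicate 2) and 0.06 at 17 dpp.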

How the data were processed

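RNA was extracted by the TRIZOL method, primed with oligo-dT and labelled with Cy3, per the labels' protocols. The scanner software was Agilent Feature Extraction per the submitters' processing notes, version 11.5.1.1 as the files give it. The deposited scanner files hold intensity values on a linear scale, and their processed signal is corrected for background per the file headers. The authors' deposited value table holds log2 values. Its scale and centring are not stated and were read from a match with the scanner values: each column followed the processed signal in log2 relative to the 75th percentile, with r of 0.999906 to 0.999946 across probes and column medians of −3.84 to −3.59. Values of 1 colour have no direction. How the authors combined spots of a probe was not found. All 8 arrays were on 1 slide and were scanned on 1 day.

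Computed here from the processed signal were log2 levels relative to the 75th percentile of the array, a signal of 470 to 692. Control spots and outlier spots (103 to 200 an array) were left out, 0 spots were saturated, and spots of a probe were averaged. The brightness filter asked that both arrays of some group be well above background. Of 37904 such probes 94 lacked a value on an array, and 37810 were tested. The model, in limma 3.58.1 with R 4.3.3 (files read with data.table, version 1.17.8), had 1 mean per group, 4 residual degrees of freedom and prior degrees of freedom of 2.16. Tests were two-sided. An "at least" fold sets the mean of the bright group against a floor for the dim one. On each array the floor is the lowest signal that counted as well above background, or the probe's own where that is higher. Summed levels add linear signals relative to the 75th percentile. The number of arrays, 2 a group, limits the precision. All probes of the 10 genes are named, and of the other sperm tail genes those with the 2 largest and the 2 smallest age differences in WT. The members and lists were chosen with earlier results of these data known. The test was checked on simulated data whose arrays varied alike and whose SD per probe was capped. The check thus does not cover an array that stands apart, or a spread as wide as that of members such as Odf1. Alternatives were another background correction, scaling, filter, probe choice, variance model and sample set, and leaving out each array. Probe positions are on mm9 per the files; no genome of that build was used here, so exons are not assigned. Promoters are RefSeq's on GRCm38.p6.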

Additional observations from a re-analysis of the deposited data

How the results depend on the processing

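Under normexp with the 75th percentile the median WT age difference of the 14 probes was 5.009, under normexp with quantile normalisation 5.076, and over the 7 probes well above background on all 8 arrays 4.132, where 6 of 7 passed and the age by genotype median was −0.436; the first 2 settings raise the dim signals by an offset, and the last tests fewer probes. Median scaling placed the median of all probes at −0.60 with age in WT and 0.22 for KO against WT at 26 dpp, against −0.47 and 0.07 as reported, and normexp with quantile at −0.25 and 0.07; the 14 probes then had WT age medians of 7.38 and 5.076, so relative to all probes their direction was the same. Of the 4 probes past the threshold with age in KO, the count was 2 with a replicate block, 0 with array weights and 0 with only the 4 arrays compared. Fewer of all probes passed with the block too, and almost none passed with array weights or with only the 4 arrays compared. The cause was not tested. Leaving out 1 array gave 0 to 13 probes past the threshold with age in WT, 0 to 13 with age in KO, 0 to 11 for KO against WT at 26 dpp and 0 to 9 for age by genotype. The medians were then 7.008 to 7.996, 0.867 to 7.446, −7.501 to −0.1 and −7.884 to −0.11. At 17 dpp 0 passed in every fit. Replicate numbers only name arrays: deviations of same-numbered arrays correlated at −0.37 (KO and WT, 26 dpp), 0.108 (KO and WT, 17 dpp) and −0.108 to 0.032 otherwise, and the replicate block left 12 probes past the threshold with age in WT.

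Some of the values that did not pass with all arrays changed sign, and most did not. KO minus WT at 17 dpp gave 0.049 (normexp, 75th percentile), 0.004 (normexp, quantile) and 0.008 (deposited table) for probe 1 of Akap4, −0.059 (normexp, quantile) and −0.024 (median scaling) for probe 2, and −0.045 (normexp, quantile) for Ropn1. For probe 2 of Odf2, age by genotype gave 0.047 (normexp, 75th percentile), 0.11 (normexp, quantile), 0.171 (median scaling) and 0.024 (deposited table), the KO age difference −0.017 with the deposited table, and the WT age difference −0.005, −0.108 and −0.041 with normexp and quantile, median scaling and the deposited table. Age by genotype of probe 1 of Ropn1l was 0.01 under median scaling. With 1 array left out, KO minus WT at 17 dpp ranged over −0.305 to 0.294 and −0.194 to 0.205 (Akap4), −0.378 to 0.548 (Odf2 probe 1), −0.157 to 0.271 (Odf3 probe 1), −1.407 to 0.916 and −1.525 to 0.982 (Ropn1l) and −0.103 to 2.017 (Smcp). At 26 dpp it ranged over −8.186 to 0.036 (Fscb) and −7.347 to 0.251 (Odf1). The KO age difference ranged over −1.224 to 6.36 (Akap3), −0.024 to 9.771 (Akap4 probe 1), −0.66 to 0.686 (Odf2 probe 2) and −0.032 to 7.105 (Odf3 probe 1), the WT one over −0.366 to 0.392 (Odf2 probe 2). Age by genotype ranged over −7.554 to 0.043 (Odf1), −0.673 to 0.673 (Odf2 probe 2), and −1.322 to 1 and −1.59 to 0.917 (Ropn1l).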
